A study of Homo sapiens with 6 samples.

Results

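The genes described here were the nuclear receptor coactivators NCOA1, NCOA2, NCOA3, EP300, CREBBP and MED1, the coactivator RNA gene SRA1, and the receptors NR3C1 and ESR1. The rule names the genes and uses no measured value, although the set was drawn up with earlier results of these data known. They make up 9 of the 35580 genes to which the deposited transcripts were joined. All 9 passed the filter on low counts that left 15204 genes to be tested. The cells were Rh30, an established human alveolar rhabdomyosarcoma line positive for the PAX3-FOXO1 gene fusion, which all libraries share. There were 3 control libraries, whose labels do not name the control agent, and 3 libraries of cells with DDX5 knocked down, labelled siDDX5. The series describes the replicates as biological. The labels give no time after transfection, and all values come from a single cell line. The comparison asks how messenger RNA levels differ when DDX5 is knocked down.

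Nuclear receptors are transcription factors that bind ligands such as steroids and recruit coactivators through short leucine-rich motifs. The p160 coactivators NCOA1, NCOA2 and NCOA3 bind the receptor and bring in the acetyltransferases EP300 and CREBBP, while MED1 links receptors to the Mediator complex and RNA polymerase II. SRA1 yields both a protein and non-coding RNA forms that act as a coactivator, and DDX5, a DEAD-box RNA helicase, is a known partner of that RNA and of several nuclear receptors. NR3C1 encodes the glucocorticoid receptor and ESR1 encodes estrogen receptor alpha.

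Sequences are shown for 3 of the places where transcripts of SRA1 and NR3C1 differ. They help to tell apart forms described below, which also differ elsewhere. They were read 5′ to 3′ on the minus strand of chromosome 5 from GENCODE 29 transcripts on GRCh38. Capitals mark the stretch present in one form and absent from the other, and lower case marks 20 flanking bases on each side. The first stretch is intron 1 of SRA1, 155 bases at chr5:140557273-140557427, which is removed in the coding form and kept in non-coding forms. The second is 78 bases within exon 2 of NR3C1, at chr5:143399825-143399902, which the transcript ENST00000424646.6 lacks. Both stretches begin with GT and end with AG, the bases found at the ends of most introns. The third is 3 bases at the end of exon 3 of NR3C1, at chr5:143313999-143314001, which ENST00000394466.6 keeps. These 3 bases insert an arginine codon into the DNA-binding domain in the form known as GR gamma.
SRA1 intron 1: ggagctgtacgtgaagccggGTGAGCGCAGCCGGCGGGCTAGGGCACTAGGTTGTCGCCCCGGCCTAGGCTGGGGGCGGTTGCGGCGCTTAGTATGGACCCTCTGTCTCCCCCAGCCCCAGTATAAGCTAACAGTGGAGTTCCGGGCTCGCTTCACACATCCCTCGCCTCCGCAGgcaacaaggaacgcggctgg
NR3C1 exon 2 stretch: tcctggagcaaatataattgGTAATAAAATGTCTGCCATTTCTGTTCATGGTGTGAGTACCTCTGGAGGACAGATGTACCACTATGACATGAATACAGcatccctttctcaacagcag
NR3C1 exon 3 end: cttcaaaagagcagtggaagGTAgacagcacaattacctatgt

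Total estimated counts were 21265569 to 26156858 in the control libraries and 18202402 to 19971888 in the siDDX5 libraries, so every siDDX5 library was the shallower. A count of 3 corresponded to 0.115 to 0.165 CPM (counts scaled to a common library total), which bears on ESR1 alone among the 9 genes. Muscle lineage markers of the line were present in all 6 libraries, with MYOD1 at 109.5 to 163 and DES at 401 to 589 TPM (the authors' values, scaled for transcript length). Markers of epithelium and liver were at or near 0, with at most 6 counts of EPCAM and 1 count of KRT5 or ALB in any library. The blood marker PTPRC reached 3.43 TPM, with 10 to 56 counts per library, and the endothelial marker PECAM1 6.88 TPM, with 207 to 298 counts. The glial marker SOX10 reached 6.11 TPM, with 6 to 19 counts per library. The part of these markers in the results was not tested.

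The targeted gene fell in the libraries labelled siDDX5. DDX5 stood at 1356, 1438 and 1141 normalised CPM in control replicates 1, 2 and 3, and at 551, 506 and 397 CPM in siDDX5 replicates 1, 2 and 3. No siDDX5 library reached the lowest control library. Its log2 fold change was -1.44 (SE 0.15), with an adjusted p of 0.0115 (edgeR, quasi-likelihood F test, Benjamini-Hochberg over all genes tested). In these bulk libraries, fewer cells with a transcript and less RNA per cell cannot be told apart.

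None of the 9 genes passed the test at an adjusted p under 0.05. All 9 log2 fold changes were below 0, with a median of -0.26 against -0.00 over all genes tested, of which 50.4% were below 0. In edgeR's quasi-likelihood test 26 of 15204 genes (0.171%) were called, and 377 genes (2.48%) were called once the replicate number entered the model as a block; neither set held any of the 9. The Wald test of DESeq2 called 2.15% of all genes and none of the 9, although it gave ESR1 no adjusted p. Without adjustment, 3 of the 9 had a p under 0.05, beside 11.3% of all genes, and 4 did with the replicate block, where the share of all genes rose to 20.4%. In 3 of the 9 every siDDX5 library lay below every control library, beside 9.19% of all genes. The description below follows the genes by role and gives the interval of each difference, since a p above the threshold does not show that a level stayed the same.

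**Figure D1:**
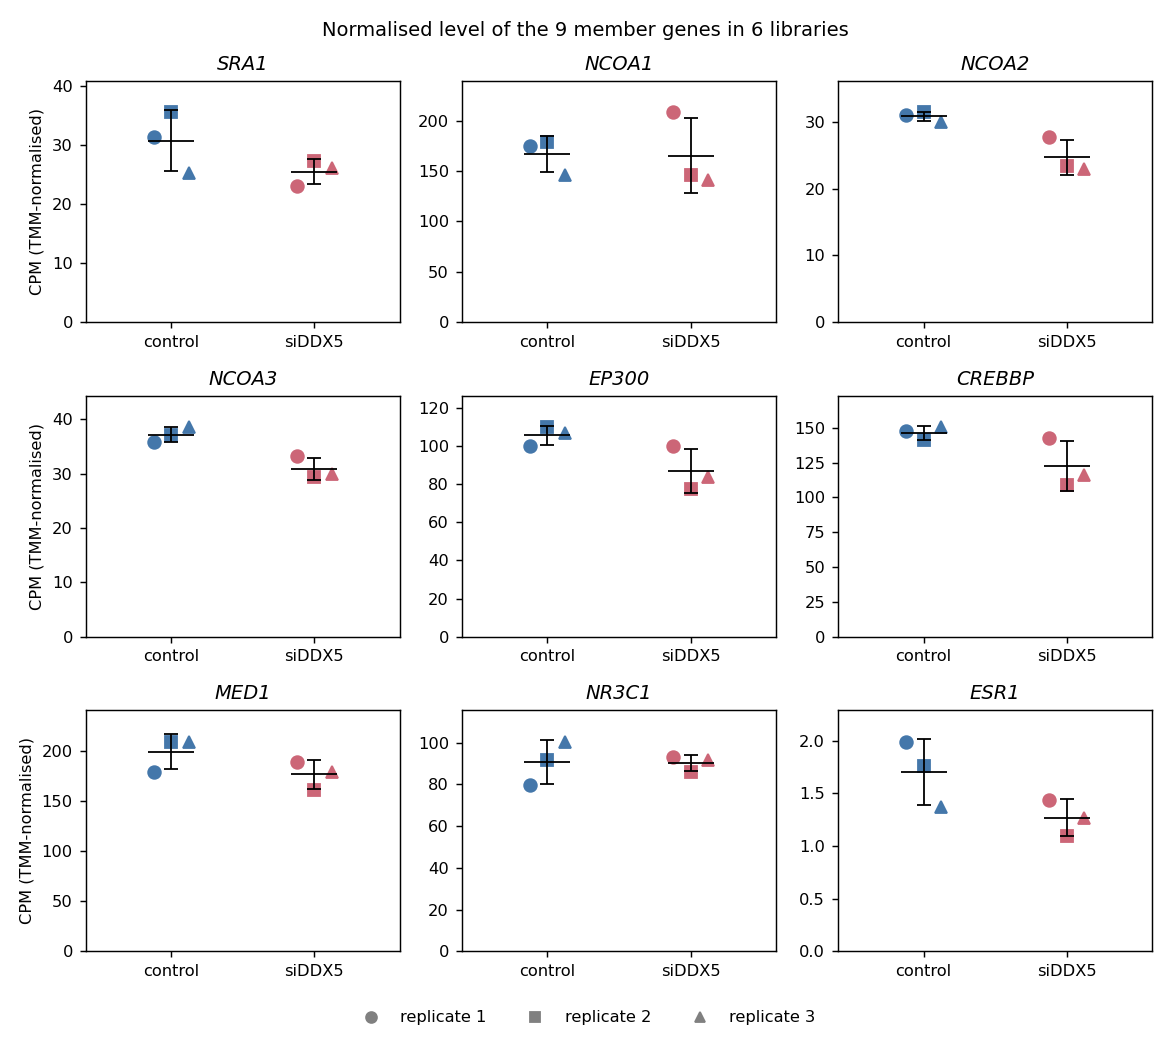
Normalised level of each of the 9 genes in CPM (vertical axis, from 0) in the 3 control and 3 siDDX5 libraries; symbols are replicates, the line is the group mean and the bars are 1 SD. NCOA2, NCOA3 and EP300 are the genes whose groups do not overlap, and in EP300 the gap is from 99.8 to 100.2 CPM.

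SRA1 (ENSG00000213523.10, GRCh38 chr5:140537340-140558252, minus strand) was measured at 31.4, 35.5 and 25.2 CPM in the control libraries and at 23.1, 27.3 and 26.1 CPM in the siDDX5 libraries. Control replicate 3 lay within the siDDX5 range, so the groups overlapped. The mean was 30.7 ± 5.18 CPM (SD, n = 3) in control and 25.5 ± 2.15 CPM (SD, n = 3) in siDDX5. The log2 fold change was -0.26 (95% interval -0.60 to 0.07), with an edgeR adjusted p of 0.539, and 0.275 with the replicate block. Without control replicate 2 it was -0.14, and without control replicate 3 it was -0.39. Between same-numbered libraries, SRA1 differed by -0.44, -0.38 and 0.05 log2 CPM, so the siDDX5 library was the lower in 2 of 3 pairs. SRA1 lies across ANKHD1 and EIF4EBP3 on the opposite strand, ESR1 overlaps SYNE1 there by 7936 bases, and EP300 overlaps antisense genes such as EP300-AS1. Whether the quantification used the strand of the reads is not given in the sources used here, so reads from these overlapping genes may not be fully separated.

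The coding form of SRA1, ENST00000336283.7, held 46.8 ± 3.43% of the gene's counts in control and 42.2 ± 2.26% in siDDX5 (SD, n = 3 each). Its estimated counts were 350.3, 355 and 306 in the control libraries and 191, 225 and 193 in the shallower siDDX5 libraries. The next form by counts, ENST00000602775.5, keeps intron 1 and held 31.2 ± 4.98% and 29 ± 4.28%. A further form that keeps intron 1 together with another intron, ENST00000523259.5, held 16.3 ± 1.28% in control and 20.8 ± 2.71% in siDDX5. Its shares did not overlap between groups, but its unadjusted usage p in edgeR's diffSpliceDGE was 0.472. How often shares do not overlap over all transcripts was not counted, which also limits the NR3C1 forms below. The fourth form, ENST00000602875.5, also keeps intron 1 and held 3.83 ± 1.68% and 5.58 ± 4.34%.

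Summed, the 3 forms that keep intron 1 held 55.2, 51.3 and 47.3% of SRA1 counts in the control libraries and 54.8, 54.4 and 57.2% in the siDDX5 libraries. More than 47% of the estimated counts of SRA1 were thus assigned to non-coding forms in every library, and the groups overlapped. The mean share was 51.3 ± 3.96% in control and 55.5 ± 1.56% in siDDX5 (SD, n = 3 each), a difference of 4.19 percentage points with p = 0.3 in a two-sided exact permutation test, in which 3 against 3 libraries cannot give a p below 0.1. The test of transcript usage across the 5 SRA1 transcripts that passed the filter gave an adjusted p of 1 (unadjusted 0.893, Simes test in edgeR's diffSpliceDGE). These shares rest on how the quantifier divided reads between forms that share most of their exons.

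Of the p160 coactivators, NCOA1 (ENSG00000084676.15, chr2:24491914-24770702, plus strand) stood at 175, 179 and 146 CPM in control and at 208, 146 and 141 CPM in siDDX5. The highest and the lowest value both belonged to siDDX5 libraries. Its log2 fold change was -0.02 (95% interval -0.38 to 0.34), with an edgeR adjusted p of 0.983. The sign of this small difference turned positive, to 0.01, when counts were derived from length-scaled TPM, and also on leaving out single libraries, with values from -0.22 to 0.09.

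NCOA2 (ENSG00000140396.12, chr8:70109762-70403805, minus strand), which is also known as a fusion partner in some childhood sarcomas, stood at 31, 31.4 and 30 CPM in control. In siDDX5 it stood at 27.7, 23.4 and 23 CPM, so all 3 libraries were below every control. The means were 30.8 ± 0.71 and 24.7 ± 2.59 CPM (SD, n = 3 each). The log2 fold change was -0.32 (SE 0.12; 95% interval -0.59 to -0.05), with an unadjusted p of 0.0254, an edgeR adjusted p of 0.361, and an adjusted p of 0.13 with the replicate block.

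NCOA3 (ENSG00000124151.18, chr20:47501902-47656877, plus strand), the p160 member known for amplification in breast cancer, stood at 35.8, 37.2 and 38.6 CPM in control and at 33.2, 29.4 and 29.9 CPM in siDDX5. Its groups did not overlap either. For NCOA3 the log2 fold change was -0.27 (SE 0.11; 95% interval -0.52 to -0.02), with an edgeR adjusted p of 0.403 (unadjusted 0.0353), and 0.173 with the replicate block. In all 3 same-numbered pairs NCOA2 and NCOA3 were lower in siDDX5, by -0.17, -0.42 and -0.39 log2 CPM for NCOA2 and by -0.11, -0.34 and -0.37 for NCOA3. How many of all genes tested differed in the same direction in all 3 pairs was not counted. The same limit holds for the pairs of EP300, CREBBP, ESR1 and NR1D1 below.

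NCOA1 counts were spread over several full-length coding transcripts. ENST00000288599.9 held 39.2 ± 4.76% in control and 36.2 ± 5.41% in siDDX5, ENST00000348332.7 held 18.7 ± 10.9% and 21.3 ± 8.25%, and ENST00000406961.5 held 10.3 ± 4.72% and 15.9 ± 3.95%. NCOA2 was almost wholly assigned to ENST00000452400.7, at 94.2 ± 2.56% and 96.6 ± 1.19%, with 2.8% and 2.26% on ENST00000518287.6. NCOA3 was divided between ENST00000371998.8, at 79.1 ± 13.7% and 73.3 ± 8.75%, and ENST00000372004.7, at 13.6 ± 14.5% and 20.8 ± 11.1%. The SDs of the divided forms show how loosely the libraries fix these shares. Transcript usage gave an adjusted p of 1 for each of the 3 genes.

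The acetyltransferases EP300 and CREBBP are close paralogs that acetylate histones at enhancers. EP300 (ENSG00000100393.12, chr22:41091786-41180079, plus strand) stood at 100.2, 109.9 and 107 CPM in control and at 99.8, 77.3 and 83.8 CPM in siDDX5. The groups did not overlap, but siDDX5 replicate 1 lay close to control replicate 1. The log2 fold change was -0.28 (SE 0.12; 95% interval -0.55 to -0.02), with an edgeR adjusted p of 0.42 (unadjusted 0.0401), and 0.176 with the replicate block. CREBBP (ENSG00000005339.14, chr16:3725054-3880726, minus strand) stood at 148, 141 and 150.5 CPM in control and at 143, 109 and 116 CPM in siDDX5. Here siDDX5 replicate 1 lay within the control range and the other two below it. For CREBBP the log2 fold change was -0.26 (SE 0.12; 95% interval -0.53 to 0.02), with an edgeR adjusted p of 0.469 (unadjusted 0.0626); with the replicate block the unadjusted p was 0.022 and the adjusted p 0.169. Between same-numbered libraries both genes were lower in all 3 pairs, EP300 by -0.01, -0.51 and -0.36 log2 CPM and CREBBP by -0.05, -0.37 and -0.38.

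EP300 was assigned mainly to ENST00000263253.9, at 95.9 ± 1.4% in control and 95.5 ± 0.571% in siDDX5. CREBBP was assigned mainly to its longest coding transcript, ENST00000262367.9, at 55.4 ± 4.94% and 63.9 ± 9.07%. A shorter coding transcript, ENST00000382070.7, had 1124, 882 and 807 counts in control and 693, 286 and 338 in siDDX5, or 26.9 ± 4.09% and 18.1 ± 5.13% of the gene. Its share overlapped between groups, with an unadjusted usage p of 0.0992, and 0.0501 with the replicate block. Transcript usage of the whole gene gave an adjusted p of 1 for EP300 and for CREBBP. The other transcripts among the 3 highest by TPM of NCOA2, NCOA3, EP300, CREBBP and MED1 were 84 to 824 bases long, apart from the MED1 form given below, and each held at most 1.58% of its gene's counts.

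MED1 (ENSG00000125686.11, chr17:39404285-39451286, minus strand), the Mediator subunit that contacts nuclear receptors, stood at 179, 209 and 209 CPM in control and at 189, 161 and 179 CPM in siDDX5. The groups overlapped, with siDDX5 replicate 1 above and replicate 3 level with control replicate 1. For MED1 the log2 fold change was -0.17 (SE 0.11; 95% interval -0.42 to 0.08), with an edgeR adjusted p of 0.599. Without siDDX5 replicate 2 it was -0.11, and over the left-out libraries it ran down to -0.24. The coding transcript ENST00000300651.11 held 96 ± 0.875% of its counts in control and 97.1 ± 1.48% in siDDX5. A transcript annotated for nonsense-mediated decay, ENST00000577831.5, had 174, 129.8 and 142 counts in control and 131, 32.7 and 39.3 in siDDX5. Its share was 3.17 ± 0.548% and 1.92 ± 1.31%, the groups overlapped, and its unadjusted usage p was 0.268.

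NR3C1 (ENSG00000113580.14, chr5:143277931-143435512, minus strand) stood at 79.8, 91.8 and 100.4 CPM in control and at 93.1, 85.7 and 91.8 CPM in siDDX5. The siDDX5 values all fell inside the control range. The means were 90.6 ± 10.3 and 90.2 ± 3.97 CPM (SD, n = 3 each), and the log2 fold change was -0.01 (95% interval -0.26 to 0.25), with an edgeR adjusted p of 0.992. With size factors from DESeq2 the value was 0.00, and on leaving out single libraries it ran from -0.09 to 0.07.

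The share of a minor NR3C1 transcript differed between the groups by more than the gene's level did. That transcript, ENST00000424646.6, which lacks the 78 bases of exon 2 shown above, had 95.8, 113 and 112 estimated counts in the control libraries. In siDDX5 replicates 1 and 2 it was assigned 0.000108 and 0 counts, and in replicate 3 it was assigned 22.6. Its share of the gene's counts was 5 ± 0.611% in control and 0.453 ± 0.784% in siDDX5 (SD, n = 3 each), with no overlap. The missing bases leave the reading frame intact, removing 26 codons after 937 coding bases, and the transcript also ends in a last exon of its own length, 2475 bases. An assignment of 0 is the quantifier's division of shared reads and not a direct count of a junction.

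This transcript had the smallest usage p of the 4 NR3C1 transcripts tested, 0.000848 unadjusted and 0.178 adjusted over all transcripts in edgeR's diffSpliceDGE. For the gene, the Simes test gave an unadjusted p of 0.00339 and an adjusted p of 0.161, and 0.19 with the replicate block, so NR3C1 was not called for transcript usage. Among all genes, 169 of 10688 (1.58%) were called for usage, and 1.2% with the replicate block, and these included none of the 9. Without siDDX5 replicate 3, the library holding the 22.6 counts, NR3C1 was called with an adjusted p of 7.19e-05. That fit kept siDDX5 replicates 1 and 2, which held 0.000108 and 0 counts of this transcript. With any other single library left out, NR3C1 was not called, and its adjusted p in the Simes test ran from 0.289 to 0.461.

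Among the other NR3C1 forms, ENST00000394464.7 held 88.8 ± 1.56% of counts in control and 95.1 ± 1.44% in siDDX5, without overlap, but its usage p was 0.779 unadjusted and 1 adjusted. ENST00000503201.1, a short coding transcript, held 3.68 ± 1.35% and 1.69 ± 0.73%, also without overlap, with an unadjusted usage p of 0.178. The GR gamma form ENST00000394466.6 held 2.01 ± 0.842% and 2.45 ± 0.189%, and its groups overlapped.

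**Figure D2:**
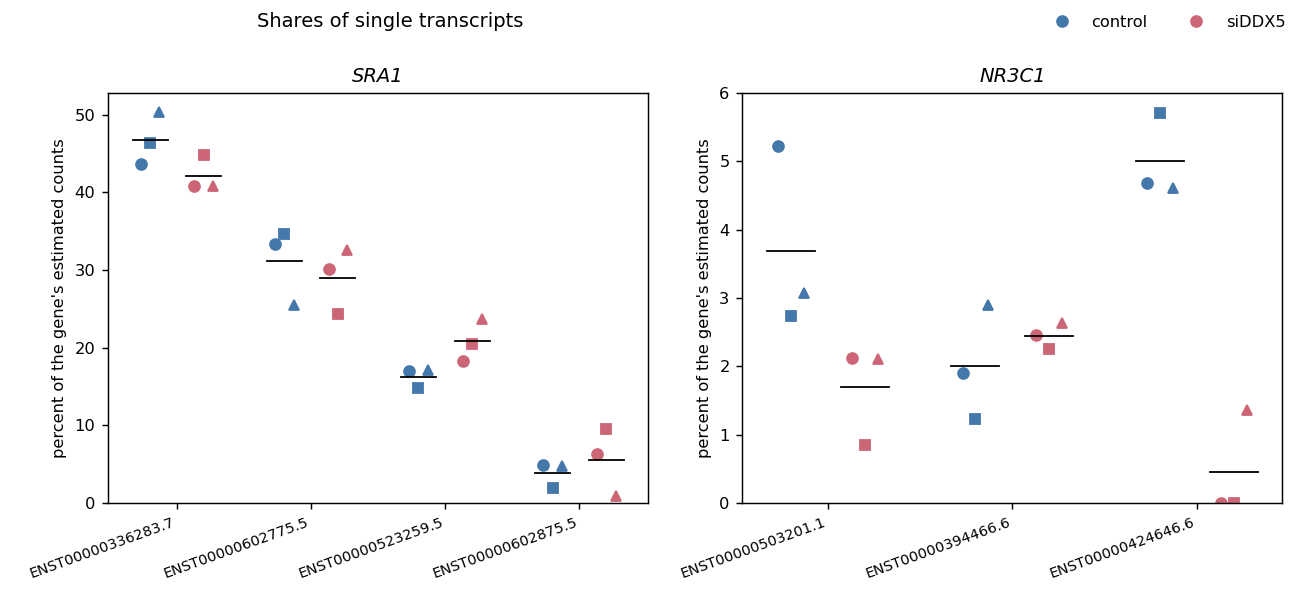
Share of the gene's estimated counts (percent, vertical axes from 0) held by single transcripts of SRA1 and NR3C1 in each library, with circles, squares and triangles for replicates 1, 2 and 3 and a line at the group mean. ENST00000424646.6 of NR3C1 lies near 5% in the control libraries and near 0 in siDDX5 replicates 1 and 2; the main NR3C1 transcript is not drawn.

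ESR1 (ENSG00000091831.23, chr6:151656691-152129619, plus strand) had 51, 38 and 33 counts in the control libraries and 29, 20 and 23 in the siDDX5 libraries, all above 3 counts. These were 1.99, 1.76 and 1.37 CPM in control and 1.44, 1.09 and 1.27 CPM in siDDX5, so the groups overlapped through siDDX5 replicate 1 and control replicate 3. Between same-numbered libraries ESR1 was lower in all 3 pairs, by -0.44, -0.65 and -0.10 log2 CPM. For ESR1 the log2 fold change was -0.43 (SE 0.27; 95% interval -1.04 to 0.18), with an edgeR adjusted p of 0.59. The interval is the widest of the 9. Most counts, 88.8 ± 4.77% and 89.6 ± 1.66%, were assigned to ENST00000427531.6. ENST00000443427.5 held 3.2 ± 3.29% and 8.06 ± 2.67%, ENST00000641399.1 held 3.04 ± 0.585% and 2.3 ± 3.98%, and too few ESR1 transcripts passed the filter for the usage test.

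**Figure D3:**
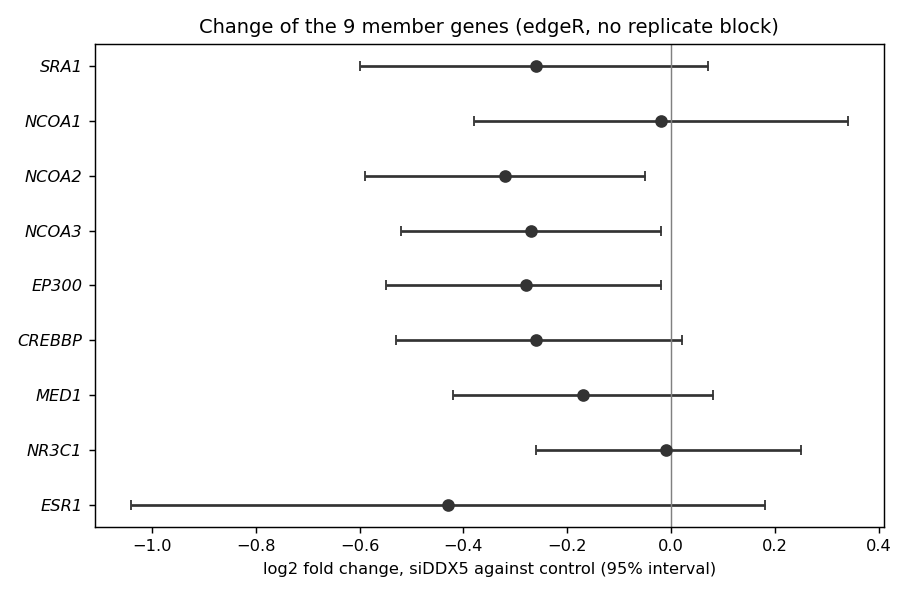
Log2 fold change of each of the 9 genes, siDDX5 against control (horizontal axis), as a point with its 95% interval from edgeR without the replicate block. The intervals of NCOA2, NCOA3 and EP300 lie below 0 and those of the other 6 include it; none of the 9 had an adjusted p under 0.05.

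Levels between genes were compared per length, in TPM summed over transcripts of at least 300 bases, because TPM of very short transcripts is large for few reads. In the control libraries the order of levels was CREBBP at 58.1 ± 7.96, NCOA1 at 45 ± 5, MED1 at 42.1 ± 4.46, EP300 at 36.4 ± 8.25, SRA1 at 29.3 ± 3.59, NR3C1 at 29.1 ± 2.46, NCOA3 at 8.8 ± 0.714, NCOA2 at 8.25 ± 0.339 and ESR1 at 0.621 ± 0.126 TPM (SD, n = 3 each). NCOA1 and MED1, MED1 and EP300, EP300 and SRA1, SRA1 and NR3C1, and NCOA3 and NCOA2 are neighbours whose means differ by less than the larger of their SDs. The steps from CREBBP to NCOA1, from NR3C1 to NCOA3 and from NCOA2 to ESR1 exceed the SDs. With all transcripts included, the mean over 6 libraries was 87.2 ± 16.9 TPM for CREBBP in place of 50.4 ± 12.3, although its 7 shorter transcripts held 0.411% of its counts. The longest coding CREBBP transcript alone stood at 9.84 ± 1.28 TPM in control and 9.19 ± 0.669 TPM in siDDX5, so its first place does not hold for main coding transcripts. Those of MED1 (ENST00000300651.11), NR3C1 (ENST00000394464.7), EP300 (ENST00000263253.9) and NCOA1 (ENST00000288599.9) stood higher in control, at 36.3 ± 3.8, 22.6 ± 3.16, 16.5 ± 0.832 and 15.7 ± 2.02 TPM.

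The differences of the coactivators were not the same in every siDDX5 library. Relative to the control mean, EP300 differed by -0.08, -0.45 and -0.33 log2 CPM in siDDX5 replicates 1, 2 and 3. CREBBP differed by -0.03, -0.43 and -0.34, and NCOA1 by 0.32, -0.19 and -0.23. In 8 of the 9 genes, all but SRA1, replicate 1 was higher than replicate 2. Long transcripts in general also stood highest in siDDX5 replicate 1 and lowest in replicate 2. Over the 1852 genes tested with a count-weighted length over 6000 bases, the median difference from control was 0.08, -0.21 and -0.06 in siDDX5 replicates 1, 2 and 3, and 60.4% of them had a log2 fold change below 0. Over the 1281 genes under 1000 bases it was -0.07, 0.12 and 0.06, and 44.4% were below 0. Of the 9 genes, 7 had a count-weighted length over 6000 bases, from NR3C1 at 6497 to CREBBP at 8548; ESR1 was at 5381 and SRA1 at 1764. The part of transcript length in the differences of the 9 genes was not tested. With length-scaled TPM as counts, the median of the 9 was -0.18 in place of -0.26. That setting adjusts for transcript length within a gene between libraries, and not for a trend between genes of different length. NCOA2 (-0.40), EP300 (-0.33), NR3C1 (-0.07) and ESR1 (-0.54) were then further below 0, and the other members were closer to 0 or above it.

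**Figure D4:**
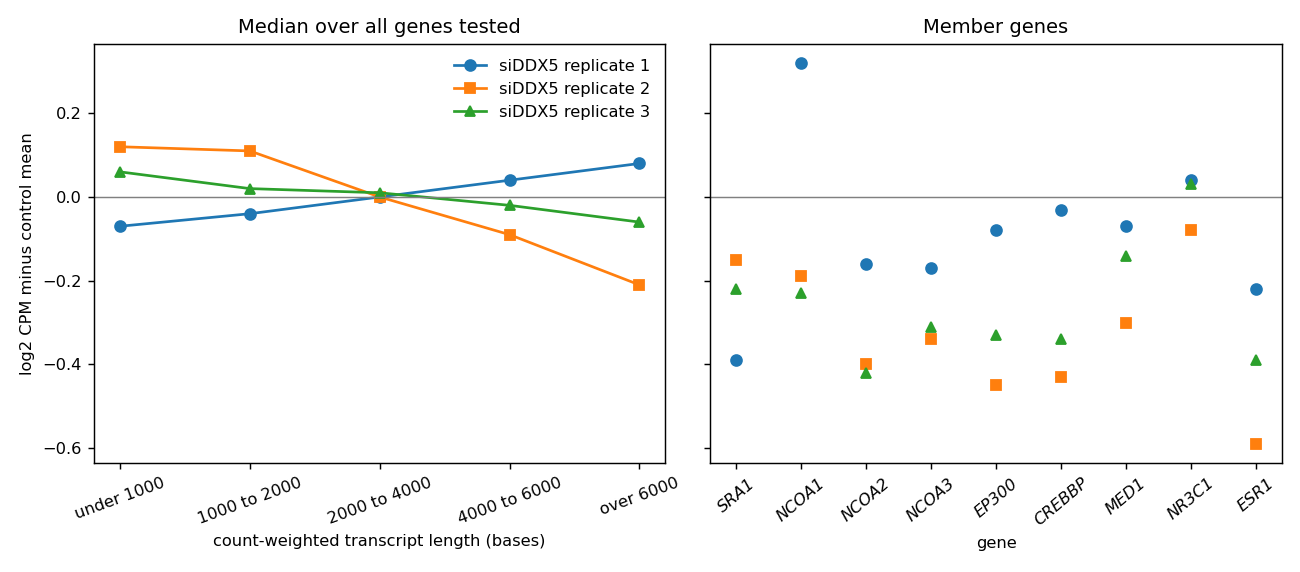
Difference of each siDDX5 library from the control mean in log2 CPM (shared vertical axis): left, the median over all genes tested in 5 bins of count-weighted transcript length in bases; right, the 9 genes. In the longest bin the medians are 0.08, -0.21 and -0.06 for replicates 1, 2 and 3, and EP300 and CREBBP have their smallest difference in replicate 1.

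Genes of the surrounding pathway were described from 8 lists of known function. Beside the list counts below, edgeR called 0.171% of all genes without the block and 2.48% with it, and DESeq2 called 2.15%. Of 26 other coactivators, edgeR called none with or without the replicate block, and the median log2 fold change was 0.03. The smallest unadjusted p among them, 0.00533, belonged to TRRAP, a scaffold of histone acetyltransferase complexes, at 203 ± 1.5 CPM in control and 147 ± 26.3 CPM in siDDX5 (edgeR adjusted p = 0.233). The DESeq2 Wald test called it, with an adjusted p of 0.0466. Of 18 corepressors described here, edgeR called none without the block and LCOR with it, and DESeq2 called none. LCOR, a ligand-dependent corepressor, had a log2 fold change of 0.45 (SE 0.17), with an edgeR adjusted p of 0.351, and 0.046 with the block.

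Of 31 Mediator subunits, which include the kinase module, edgeR called none without the block and CDK8 with it. CDK8, the kinase of that module, stood at 25, 33.6 and 29.2 CPM in control and at 42.7, 50 and 41.7 CPM in siDDX5. Its log2 fold change was 0.61 (SE 0.14), with an edgeR adjusted p of 0.134, and 0.0154 with the block; DESeq2, with no block, called it at 0.00663. Of 44 nuclear receptors, 27 passed the filter, and edgeR called none without the block and 2 with it. RXRA, the common dimer partner of many receptors, stood at 108 ± 12.1 CPM in control and 76.9 ± 3.3 CPM in siDDX5 (edgeR adjusted p = 0.143, 0.0368 with the block, and 0.0141 in DESeq2 without it). NR1D1, the clock-linked repressor REV-ERB alpha, stood at 11.1 ± 5.28 and 18.7 ± 7.32 CPM with overlapping groups (edgeR adjusted p = 0.461, 0.0145 with the block, and 0.211 in DESeq2 without it). NR1D1 was higher in siDDX5 in each same-numbered pair: 6.55 against 13.2, 16.9 against 27 and 9.85 against 15.9 CPM.

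Of 13 receptor chaperones and of 18 glucocorticoid receptor targets tested, edgeR called none without the block, and it called FKBP5, which is on both lists, with it. FKBP5 encodes an HSP90 cochaperone and is a textbook target of NR3C1. It stood at 34.6, 32.5 and 31.7 CPM in control and at 23.4, 20.8 and 17.3 CPM in siDDX5, with no overlap. Its log2 fold change was -0.68 (SE 0.14), with an edgeR adjusted p of 0.0863, and 0.0145 with the block. Without the block it was also called by DESeq2 (adjusted p = 0.00156) and by edgeR without the filter on low counts (0.0413). The median of the glucocorticoid receptor targets was 0.07, with 9 genes above and 9 below 0. In edgeR with the block, 5 of them were higher and 1, FKBP5, was lower at an unadjusted p under 0.05. Of all genes tested, 20.4% had such a p in either direction.

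Of 8 genes whose products are known to act with SRA1 RNA, edgeR called DDX5 itself, and CTCF in addition with the block. CTCF, the insulator-binding factor, stood at 84.5, 84.6 and 83.4 CPM in control and at 59.9, 60.1 and 58 CPM in siDDX5. Its log2 fold change was -0.50 (SE 0.09), with an edgeR adjusted p of 0.0719, and 0.0152 with the block; DESeq2, with no block, called it at 0.000953. DDX17, the paralog of DDX5, was at 497 ± 39.1 CPM in control and 596 ± 35.2 CPM in siDDX5 (edgeR adjusted p = 0.409, and 0.184 with the block). Of 14 estrogen receptor targets tested, none was called by edgeR with or without the block, or by DESeq2. The smallest p among them belonged to MYB, at 8.44 ± 0.555 and 5.85 ± 1.43 CPM (edgeR adjusted p = 0.374).

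**Figure D5:**
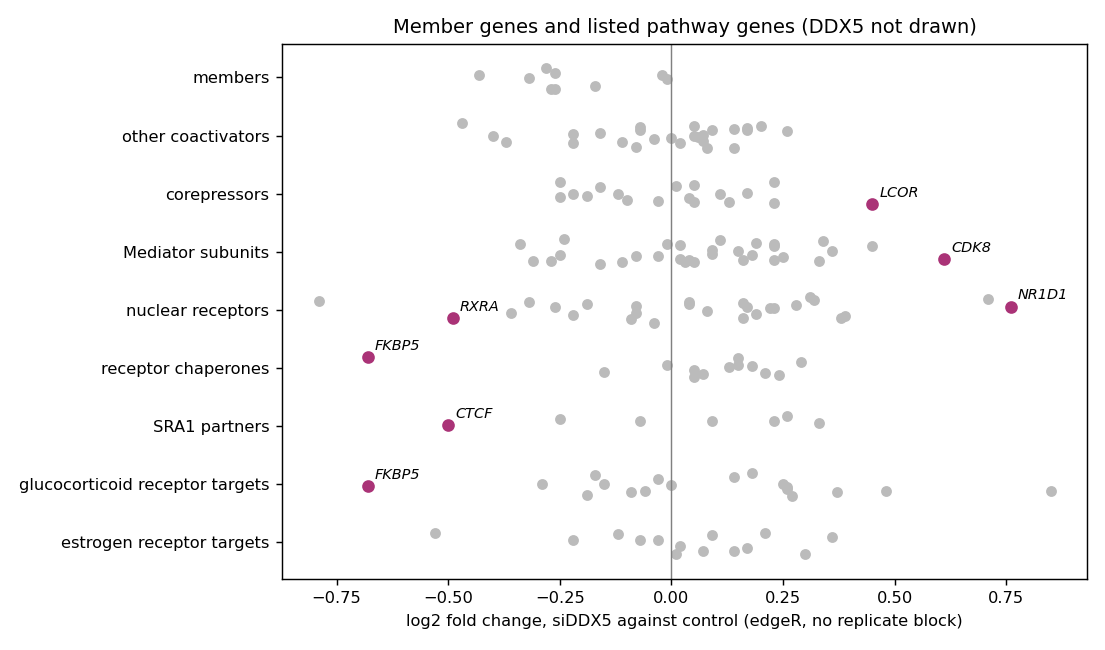
Log2 fold change, siDDX5 against control (horizontal axis), of the 9 genes and of each gene tested in 8 pathway lists, with a point per gene; larger named points are genes called with the replicate block as a term, and DDX5 is not drawn. All 9 points in the top row lie below 0, with NCOA1 at -0.02 and NR3C1 at -0.01, and their median is -0.26. The list medians lie between 0.01 and 0.13, with DDX5 counted in that of the SRA1 partners.

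The genes whose log2 CPM followed SRA1 most closely over the 6 libraries, among 10988 genes, were AARSD1 (Pearson r 0.991), SAMD4B (0.985) and ZBTB14 (0.984). For NR3C1 they were FCHO2 (0.985), DIDO1 (0.977) and PIK3C2A (0.976). These are descriptions over the same 6 libraries, which differ in depth, and were picked as the highest of many values.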

How the data were processed

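Messenger RNA of 3 control and 3 siDDX5 Rh30 libraries was sequenced after TruSeq stranded preparation, per the labels' protocols. Per the submitters' processing notes, the tools were bcl2fastq 2.20, FastQC 0.11.8, cutadapt 1.11 and kallisto 0.46.0, on GRCh38. The authors deposited estimated counts and TPM per transcript, unfiltered, with TPM scaled for effective length, per the file headers. The strand setting is not given in the sources used here.

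Of 188753 transcripts, 169797 were joined to genes by GENCODE 29 identifiers and 15291 by symbol; 3665, holding 0.68 to 0.74% of counts, were left out. Estimated counts were summed per gene, rounded, filtered with filterByExpr and scaled by TMM. They were tested with edgeR 4.0.16 (R 4.3.3) with group as the only term. The tests were also run on simulated counts, drawn without reads shared between transcripts. Those runs do not bear on how the quantifier divided reads between forms. CPM are TMM-normalised. Usage was tested with diffSpliceDGE. DESeq2 1.42.0, limma 3.58.1 (log2 of TPM plus 1 or 0.1), other filters and single left-out libraries were alternatives. The SE is the log2 fold change divided by the square root of F.

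Deviations of same-numbered libraries from their group means correlated at 0.21, 0.27 and 0.56 over 15204 genes. The titles give only a number, and libraries of different number were not compared in this way. As every same-numbered pair exceeded 0.1, the numbers were assumed to pair the libraries. The fit with the replicate block is given where it matters, beside the fit without it, which stayed the main one. The biological coefficient of variation was 15.8% without and 10.4% with the block. Counting error alone limits single low counts.

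Named were the 9 genes, DDX5, the 3 transcripts of highest TPM of each gene and that of lowest usage p (short ones as a range), the genes of each list called with or without the block (or else the lowest p), and the 3 genes most like SRA1 and NR3C1. Genes and lists were chosen with earlier results of these data known. A result for a gene of the corepressor list is not reported here, and that gene is not in the list's counts and median.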

Additional observations from a re-analysis of the deposited data

How the results depend on the processing

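None of the 9 genes was called in any of the 16 settings, and 0 to 4 of them had an unadjusted p under 0.05, beside 8.03 to 20.4% of all genes tested. The count of 4 came with the replicate block (20.4%) and without siDDX5 replicate 1 (13.1%). SRA1, NCOA2, NCOA3, EP300, CREBBP, MED1 and ESR1 stayed below 0 in each setting that gave a value. ESR1 gave none at a mean of at least 50 counts and had no adjusted p in the DESeq2 Wald test. At a mean of 0.516 TPM it was also below the minimum of 1 TPM for limma-trend, and its values there come from fits without that minimum. ESR1 could therefore not be called in those settings. NR3C1 was at 0.00 (above 0 before rounding) with DESeq2 size factors and 0.00 with the DESeq2 Wald test, and ran from -0.09 to 0.07 on leaving out single libraries. NCOA1 was at 0.01 with length-scaled TPM and ran from -0.22 to 0.09 on leaving out single libraries. The number of genes called, 26, became 377 with the replicate block, 327 with DESeq2, 129 without the filter, 2 with length-scaled TPM, 1 with limma-trend at TPM + 1 and 1 at TPM + 0.1. It ran from 0 to 16 on leaving out single libraries. It was 0 in edgeR without control replicate 1 (1242 genes at an unadjusted p under 0.05) and 0 without siDDX5 replicate 1 (2036 genes). DDX5 kept its direction, but its adjusted p was 0.0754 with length-scaled TPM (log2 fold change -1.37), 0.0857 with limma at TPM + 1 (-1.44) and 0.0937 at TPM + 0.1 (-1.44). It was 0.091 without control replicate 1, 0.0582 without siDDX5 replicate 1 and 0.0586 without siDDX5 replicate 2, with log2 fold changes from -1.54 to -1.30 over the left-out libraries. The count of the 9 genes called for transcript usage ran from 0 to 1 on leaving out single libraries, the 1 being NR3C1 without siDDX5 replicate 3; its adjusted p over all settings ran from 7.19e-05 to 0.51. The TPM of CREBBP with all transcripts, 87.2, was 50.4 over those of at least 300 bases, an alternative chosen after seeing the data. The cause of these changes was not tested. The replicate block changed no call among the 9 genes. Depth limits ESR1 most.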
